A study of Danio rerio with 6 samples.

Results

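The Delta and Jagged genes, which encode the ligands of the Notch pathway, and the Notch receptor genes were followed in whole zebrafish embryos with and without a morpholino against the estrogen receptor ERbeta2. The members were taken by gene symbol. The symbols dla, dlb, dlc, dld, jag1b, jag2b, notch1a, notch1b, notch2 and notch3 were carried by 16 probe sets for 10 genes, of 8793 genes in 10802 probe sets with 1 symbol. The ERbeta2 MO embryos had received a morpholino, an antisense oligomer, that blocks translation of ERbeta2, at 15 uM in the egg or up to the 4 cell stage. The coMO embryos had received a standard control morpholino at the same concentration, and the remaining group was left uninjected. All embryos came from eggs of several aquaria, were raised at 28 °C and were collected at 72 hours post fertilization (hpf). The labels name no strain, transgene or mutant allele. Each group had 2 Affymetrix arrays, called biological replicates in the labels. The study's title asks about ERbeta2 in neuromasts, which are the lateral line's sensory organs.

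Notch signalling passes between touching cells. A Delta or Jagged ligand on one cell binds a Notch receptor on its neighbour, the receptor is cleaved, and its intracellular part enters the nucleus, where with the DNA-binding protein Rbpj it turns on repressor genes of the her and hey families. In the developing nervous system and in neuromasts, cells that become neurons or hair cells carry much Delta and hold their neighbours back as progenitors or support cells, a process called lateral inhibition.

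The values are MAS5 signals, which sum up a probe set's probes into 1 value per array, with each array scaled separately. The trimmed mean was 500.1 on all 6 arrays. The signal table has no detection calls, so a low signal cannot be told from background. With 2 arrays a group, precision is limited by their number. On log2 signals, ERbeta2 MO replicate 2 correlated more closely with coMO replicate 1 (r = 0.953) than with ERbeta2 MO replicate 1 (0.940). The control probe sets for the 2 ends of GAPDH had a 3'/5' ratio of 2.01 to 2.76 in ERbeta2 MO, 1.23 to 1.95 in coMO and 1.24 to 1.32 in uninjected embryos, and that of acta1 was 8.92 to 13.5, 10.8 to 21.8 and 3.54 to 4.26 in the same order. The GAPDH ratio, which is usually higher where RNA is less intact, was highest in the ERbeta2 MO group. Its values on ERbeta2 MO replicate 2 (2.01) and coMO replicate 1 (1.95) were close, while those of acta1 were 13.5 and 21.8. The controls ranked the arrays differently. ERbeta2 MO replicate 1 had the highest GAPDH ratio (2.76) but the lowest acta1 ratio of the injected arrays (8.92). The GAPDH ratio enters as a covariate where stated. As it differed between the groups, a fit with it on 6 arrays cannot separate the ratio from the group. As whole embryos were used, a change in the number of cells of a type and a change in RNA per cell cannot be told apart.

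The symbol dld did not lead to the gene that its place in the list implies. In the RefSeq gene table of assembly GRCz12tu, the gene under the symbol dld has no older symbol, and DLD is in mammals the symbol of dihydrolipoamide dehydrogenase, a mitochondrial enzyme. The same table lists dld as an older symbol of the gene dldh, and the probe set of dldh carries the accession of a RefSeq transcript of that gene, which is known as deltaD. Both probe sets are therefore described, dld as the rule gives it and dldh as an addition made after its values were seen. Of the 16 probe sets of the rule, 9 carry an accession that is a RefSeq transcript of their gene. Those that do not include both dlb probe sets, every notch2 probe set and that of dld, so their gene rests on the platform annotation.

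**Figure D1:**
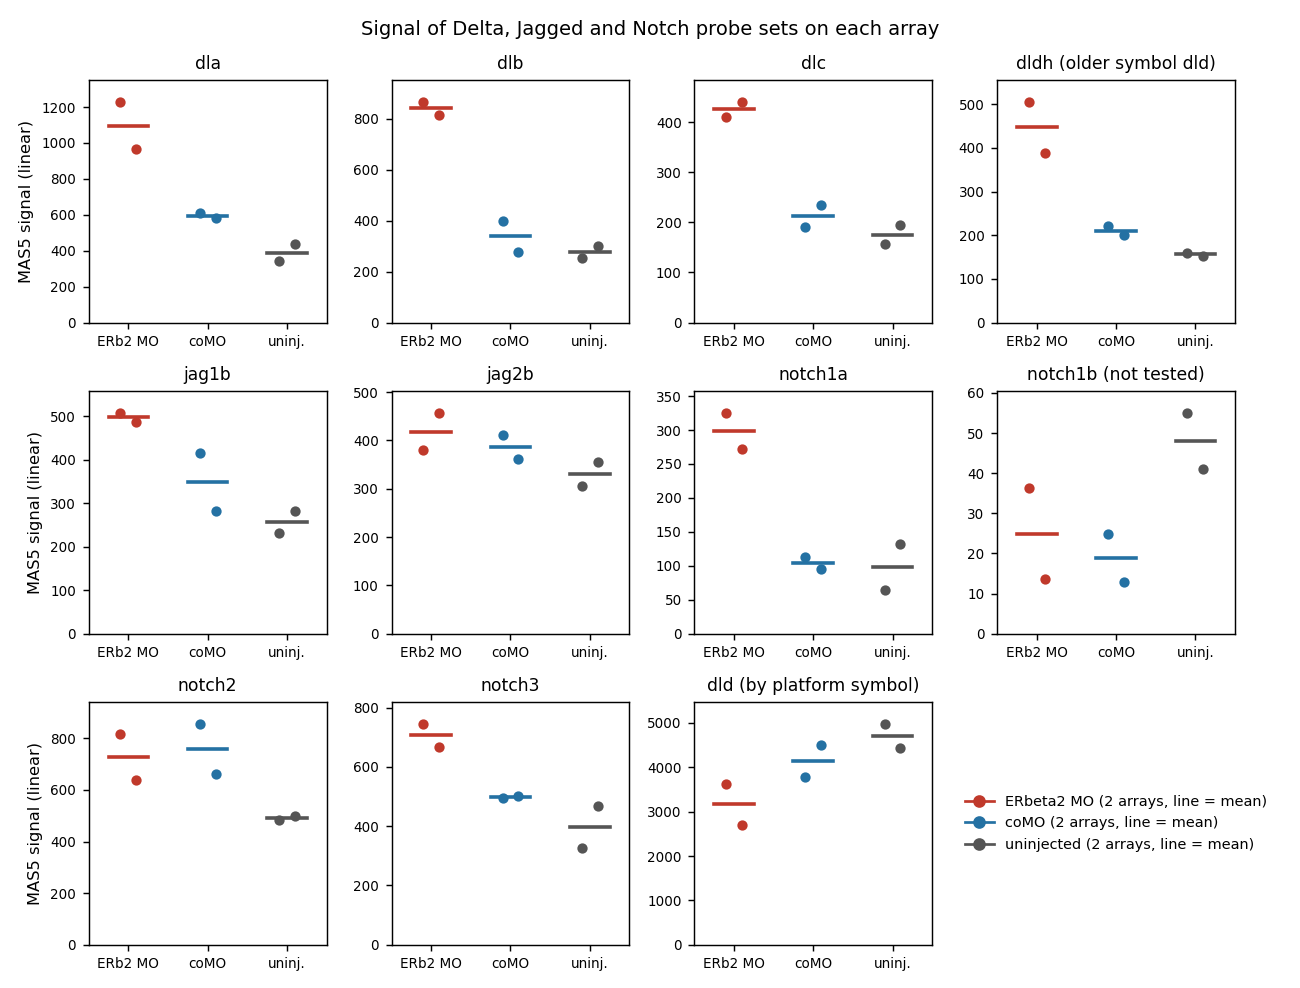
MAS5 signal (linear scale, from 0) of the probe set with the highest mean for each gene, with 1 point per array, a line at the mean of the 2 arrays, and ERbeta2 MO, coMO and uninjected embryos from left to right. For dla, dlb, dlc, dldh, jag1b, notch1a and notch3 both ERbeta2 MO arrays lay above the other 4 arrays, and for dld both lay below them.

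Of the Delta genes, dla, dlb and dlc had their highest signals in ERbeta2 MO embryos, with fitted ratios to the other groups from 1.79 to 2.84. Against uninjected embryos dla, dlb and dlc rose, and against coMO embryos dlb alone among them passed the test. The test was limma's moderated test on log2(signal + 32) with Benjamini-Hochberg adjustment over 11626 probe sets and a threshold of 0.05, and each fold is on that scale, which understates changes of low signals.

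The gene dlb encodes a Delta ligand of newly formed neurons. Its signal was 867 and 815 on the ERbeta2 MO arrays, 399 and 277 on the coMO arrays, and 253 and 300 on the uninjected arrays. The ERbeta2 MO arrays stood apart from the other 4, and the coMO and uninjected arrays overlapped. The means were 841 ± 36.6 in ERbeta2 MO, 338 ± 86.8 in coMO and 277 ± 32.9 in uninjected embryos (SD, n = 2 each). Against coMO the log2 change was 1.26 (SE 0.229, adjusted p = 0.0412), a 2.39-fold rise, and 0.593% of tested probe sets had a change at least as high. Against uninjected embryos it was 1.50 (SE 0.229, adjusted p = 0.00684), a 2.84-fold rise.

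The call of dlb against coMO was close to the threshold. With 1 array left out the change ranged from 1.02 to 1.50. The call changed with the arrays in the fit, as did the number of all probe sets called. It was lost without coMO replicate 1 (1.50, adjusted p = 0.119), without coMO replicate 2 (1.02, 0.414), and without uninjected replicate 1 (adjusted p = 0.0922) or replicate 2 (0.0928), which leave the change at 1.26 and enter only through the estimate of the spread. With the GAPDH ratio as a covariate the change was 0.94 (adjusted p = 0.719). A second dlb probe set had signals of 84.7 and 86.8 on the ERbeta2 MO arrays, 51.6 and 59.1 on the coMO arrays, and 63.6 and 50.5 on the uninjected arrays. It lay below the filter on low signals, and again the ERbeta2 MO arrays were the highest and the other groups overlapped. Fitted with no filter, its change against coMO was 0.43 (adjusted p = 0.372).

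The gene dla encodes DeltaA, a ligand of the neural tube and of sensory patches. Its signal was 1229 and 965 on the ERbeta2 MO arrays, 608 and 584 on the coMO arrays, and 341 and 437 on the uninjected arrays. No group overlapped another, and the order of the groups was ERbeta2 MO, coMO and uninjected from high to low. The log2 change was 1.42 against uninjected embryos (SE 0.217, adjusted p = 0.00691), a 2.68-fold rise. Against coMO it was 0.84 (95% interval 0.339 to 1.33, adjusted p = 0.0891) and did not pass. That change was 1.01 without ERbeta2 MO replicate 2, which leaves a single array in the group.

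The gene dlc encodes DeltaC, which also acts in somite formation. The probe set with the highest mean had signals of 410 and 440 on the ERbeta2 MO arrays, 191 and 234 on the coMO arrays, and 156 and 194 on the uninjected arrays. The ERbeta2 MO arrays were apart from the others, while coMO and uninjected arrays overlapped. Against uninjected embryos the change was 1.15 (SE 0.215, adjusted p = 0.0119), a 2.22-fold rise, and against coMO it was 0.91 (95% interval 0.414 to 1.40, adjusted p = 0.0716), which did not pass.

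The dlc probe sets differed in how far their arrays spread. A second one had signals of 519 and 301 on the ERbeta2 MO arrays, 151 and 101 on the coMO arrays, and 114 and 408 on the uninjected arrays. Its uninjected arrays reached from below a coMO array to above an ERbeta2 MO array. Its change was 1.46 against coMO (adjusted p = 0.155) and 0.76 against uninjected embryos (adjusted p = 0.298), and neither passed. The remaining dlc probe set had signals from 1.06 to 25.7 over the 6 arrays and lay below the filter.

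The probe set of dldh had signals of 506 and 390 on the ERbeta2 MO arrays, 221 and 200 on the coMO arrays, and 160 and 153 on the uninjected arrays. The groups did not overlap, in the same order as for dla. The change was 1.34 against uninjected embryos (SE 0.215, adjusted p = 0.00785), a 2.53-fold rise. Against coMO it was 0.98 (95% interval 0.484 to 1.47, adjusted p = 0.0585), which did not pass. That change was 1.15 without ERbeta2 MO replicate 2, which leaves a single array in the group. The call of dldh against uninjected embryos was lost without uninjected replicate 1 (adjusted p = 0.0848) or replicate 2 (0.0638). The probe set under the symbol dld ran the other way, with 3634 and 2708 on the ERbeta2 MO arrays, 3788 and 4508 on the coMO arrays, and 4974 and 4437 on the uninjected arrays. Both ERbeta2 MO arrays lay below the other 4. The changes of dld were -0.39 against coMO (adjusted p = 0.337) and -0.58 against uninjected embryos (adjusted p = 0.0891), and neither passed. Against uninjected embryos the change of dld was -0.79 without ERbeta2 MO replicate 1, which leaves a single array in the group.

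Of the Jagged ligand genes, jag1b rose against uninjected embryos and jag2b did not pass in any comparison. The gene jag1b, which in zebrafish acts in the patterning of the face skeleton, had signals of 507 and 487 on the ERbeta2 MO arrays, 415 and 281 on the coMO arrays, and 232 and 283 on the uninjected arrays. The ERbeta2 MO arrays were the highest, and coMO overlapped with uninjected embryos. Its change was 0.88 against uninjected embryos (SE 0.236, adjusted p = 0.0363), a 1.84-fold rise, and 0.50 against coMO (95% interval -0.0414 to 1.04, adjusted p = 0.28). The jag2b signal was 380 and 457 on the ERbeta2 MO arrays, 410 and 362 on the coMO arrays, and 307 and 355 on the uninjected arrays. The injected groups overlapped, with a change of 0.10 (95% interval -0.373 to 0.58). The only further family gene with a probe set, jag1a, a second Jagged1 gene, had 218 and 202 on the ERbeta2 MO arrays, 217 and 183 on the coMO arrays, and 118 and 144 on the uninjected arrays. In jag1a both injected groups lay above the uninjected arrays, yet neither change passed (0.58 for ERbeta2 MO, adjusted p = 0.0922, and 0.51 for coMO, adjusted p = 0.387).

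Among the receptors, notch1a and notch3 rose against uninjected embryos, notch2 did not pass, and notch1b was too low to test. The gene notch1a encodes a receptor of neural progenitors. Its signal was 325 and 272 on the ERbeta2 MO arrays, 113 and 94.8 on the coMO arrays, and 63.9 and 132 on the uninjected arrays. The coMO arrays lay within the uninjected range, and both ERbeta2 MO arrays exceeded 2 times the highest of the other 4. The change was 1.40 against uninjected embryos (SE 0.286, adjusted p = 0.0158), a 2.63-fold rise. Against coMO it was 1.28 (95% interval 0.628 to 1.94, adjusted p = 0.0606), as large as that of dlb but with a wider error, and it did not pass. It passed with a pseudocount of 100 (0.97, adjusted p = 0.0483). The change against coMO was 1.40 without ERbeta2 MO replicate 2, which leaves a single array in the group.

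A second notch1a probe set, below the filter, had 98.3 and 141 on the ERbeta2 MO arrays and at most 49.4 on the other 4. The ERbeta2 MO arrays stood apart from both other groups. Fitted with no filter, its change was 1.28 against coMO (adjusted p = 0.155) and 1.39 against uninjected embryos (adjusted p = 0.0464). Both notch1a probe sets are annotated to the same RefSeq transcript, so the second is not separate support. By the naming of the array maker, both notch1a probe sets and the main dlc probe set hold probes that may match more than 1 transcript, and the part of such matches in these signals was not tested.

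The receptor gene notch3, active in neural progenitors and in the mural cells of vessels, had signals of 744 and 668 on the ERbeta2 MO arrays, 494 and 503 on the coMO arrays, and 325 and 467 on the uninjected arrays. The groups did not overlap, with ERbeta2 MO highest and uninjected lowest. Its change was 0.80 against uninjected embryos (SE 0.223, adjusted p = 0.0399), a 1.75-fold rise, and 0.47 against coMO (95% interval -0.0368 to 0.984, adjusted p = 0.278), which did not pass. The call against uninjected embryos was lost without any 1 of ERbeta2 MO replicate 1 (adjusted p = 0.0559), coMO replicate 1 (0.0781), coMO replicate 2 (0.0779), uninjected replicate 1 (0.309) or uninjected replicate 2 (0.0862).

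The receptor gene notch2 followed another order. Its main probe set had 815 and 637 on the ERbeta2 MO arrays, 855 and 662 on the coMO arrays, and 484 and 499 on the uninjected arrays. Both injected groups lay above the uninjected arrays and overlapped each other. The change was -0.06 between ERbeta2 MO and coMO (95% interval -0.562 to 0.442), 0.52 between ERbeta2 MO and uninjected embryos (adjusted p = 0.126) and 0.58 between coMO and uninjected embryos (adjusted p = 0.355), and none passed. The change against coMO was 0.012 with each array centred on its median, 0.11 when ERbeta2 MO replicate 2 was left out and 0.12 when coMO replicate 1 was, so its sign is not settled. Against uninjected embryos the change of notch2 was 0.69 without ERbeta2 MO replicate 2, which leaves a single array in the group. A second notch2 probe set had 215 and 182 on the ERbeta2 MO arrays, 233 and 253 on the coMO arrays, and 154 and 208 on the uninjected arrays, and the remaining one ranged from 17 to 87.9 with overlap of all groups.

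The probe set of notch1b, which encodes a second Notch1 receptor, had signals of 36.2 and 13.6 on the ERbeta2 MO arrays, 24.8 and 12.8 on the coMO arrays, and 55 and 41.1 on the uninjected arrays. Both injected groups were below the uninjected arrays, at signals where background cannot be separated. Fitted with no filter, the change was -0.66 for coMO against uninjected embryos (adjusted p = 0.433) and -0.52 for ERbeta2 MO against uninjected embryos (adjusted p = 0.25).

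**Figure D2:**
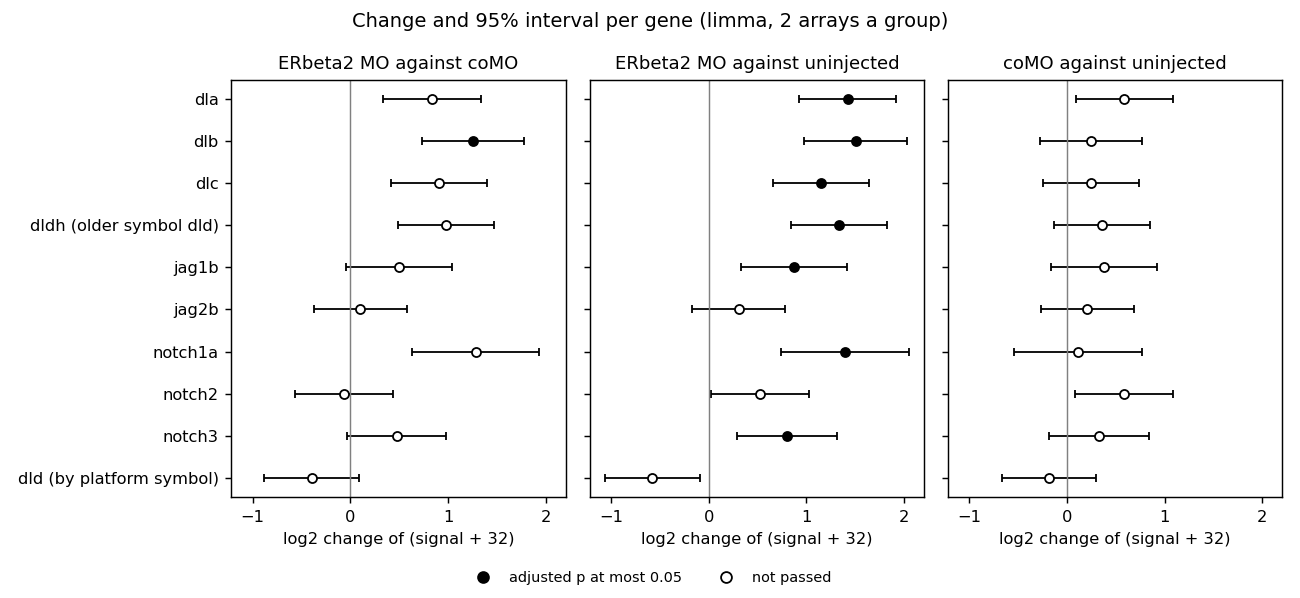
Log2 change of (signal + 32) with its 95% interval from limma for each gene, in the 3 comparisons, with filled points where the adjusted p is at most 0.05. Against uninjected embryos dla, dlb, dlc, dldh, jag1b, notch1a and notch3 passed in ERbeta2 MO. Against coMO dlb alone passed, and between coMO and uninjected embryos no gene shown passed.

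Counted by the rule, 9 of the 10 genes passed the filter on low signals. Against coMO, 1 of these 9 was called higher in ERbeta2 MO, where 0.654% of all tested probe sets were called higher, and 0 of 9 were called lower, against 1.62%. For 6 of the 9 both ERbeta2 MO arrays lay above both coMO arrays, against 24.6% of tested probe sets, and for 1 both lay below, against 23.4%. The median change of the 9 was 0.50, and that of all tested probe sets was -0.0044. With dldh in place of dld, 1 of 9 was called, 7 of 9 lay fully above coMO and the median was 0.84. With 1 array left out the change ranged from 0.67 to 1.01 for dla, from 1.02 to 1.50 for dlb and from 1.17 to 1.40 for notch1a. Which members were called changed with the array left out, as did the number of all probe sets called.

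Against uninjected embryos, 6 of the 9 genes were called higher in ERbeta2 MO, where 8.26% of all tested probe sets were called higher, and 0 of 9 were called lower, against 10.1%. Both ERbeta2 MO arrays lay above both uninjected arrays for 8 of 9, against 33.6%, and below them for 1 (dld), against 30%. The median change was 0.88, against 0.027 over all tested probe sets. With dldh in place of dld, 7 of 9 were called and the median was 1.15. The 6 calls rested on the uninjected arrays. Without uninjected replicate 1, 0 of 9 were called by limma (adjusted p from 0.0849 for dlb to 0.309 for notch3), and 61 probe sets in all. Without uninjected replicate 2, the members dla, dlb and notch1a were called, and dlc (adjusted p = 0.0631), jag1b (0.125) and notch3 (0.0862) were not. The changes of the 6 genes without uninjected replicate 1 were from 0.56 (notch3) to 1.39 (dlb). With the GAPDH ratio as a covariate no probe set at all was called in these 2 comparisons, and the changes against uninjected embryos were 1.21 for dla, 1.05 for dlb, 1.46 for dlc, 0.42 for jag1b, 1.18 for notch1a and 0.79 for notch3. Across all 3 groups, both ERbeta2 MO arrays exceeded the other 4 for 6 of 9 members and for 19.8% of tested probe sets.

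Between coMO and uninjected embryos 0 of 9 members and 0 of 11626 probe sets passed in limma. At an unadjusted p of at most 0.05, 2 members were higher (dla and notch2), as were 5.81% of tested probe sets, and 0 were lower, against 6.59%. The change of dla was 0.59 (95% interval 0.0882 to 1.08) and that of notch2 0.58 (0.0821 to 1.09). For 4 of 9 members both coMO arrays lay above both uninjected arrays, against 28.9%, and for 0 they lay below, against 26.1%. The median over the 9 was 0.25, and over all tested probe sets 0.021. The mean of coMO lay between those of ERbeta2 MO and uninjected embryos for 7 of 9 members, in falling order, against 29.1% of tested probe sets. The ERbeta2 MO and coMO comparisons with uninjected embryos share the same 2 uninjected arrays.

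The authors' deposited table of ratios between ERbeta2 MO and coMO leaves out ratios between 0.5 and 2. It holds 5 of the 16 member probe sets at 2 or more, against 3.04% of all probe sets other than controls, and 0 at 0.5 or less, against 3.55%. These were the main notch1a probe set (3.63), both dlb probe sets (2.93 and 2.41) and a pair of dlc probe sets (3.16 and 2.04), and the table also lists dldh at 2.49. In the authors' deposited table for ERbeta2 MO and uninjected embryos, where 7.53% of probe sets have a ratio of at least 2, and 8.04% one of at most 0.5, the members listed were all at 2 or more: notch1a (4.73 and 2.04), dlb (3.61 and 2.60), dla (2.63), dlc (2.36) and jag1b (2.10). That table also lists dldh at 4.04 and jag1a at 2.52. The authors' deposited table for coMO and uninjected embryos lists none of these genes, where 0.8% of probe sets have a ratio of at least 2 and 2.68% one of at most 0.5. The sources used here do not say how the authors combined the replicates, and the ratios in the authors' deposited table differ from those of the mean signals in both directions. Between ERbeta2 MO and coMO the mean signals gave 2.88 for notch1a, 2.49 and 1.55 for the dlb probe sets, and 3.25 and 2.00 for the dlc probe sets, the last just under 2. Between ERbeta2 MO and uninjected embryos they gave 3.05 and 4.24 for the notch1a probe sets, 3.04 and 1.50 for those of dlb, 2.82 for dla, 2.43 for dlc, 1.93 for jag1b and 1.61 for jag1a. By mean signals the second dlb probe set therefore lies below 2 in both comparisons, and jag1b lies below 2 against uninjected embryos.

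**Figure D3:**
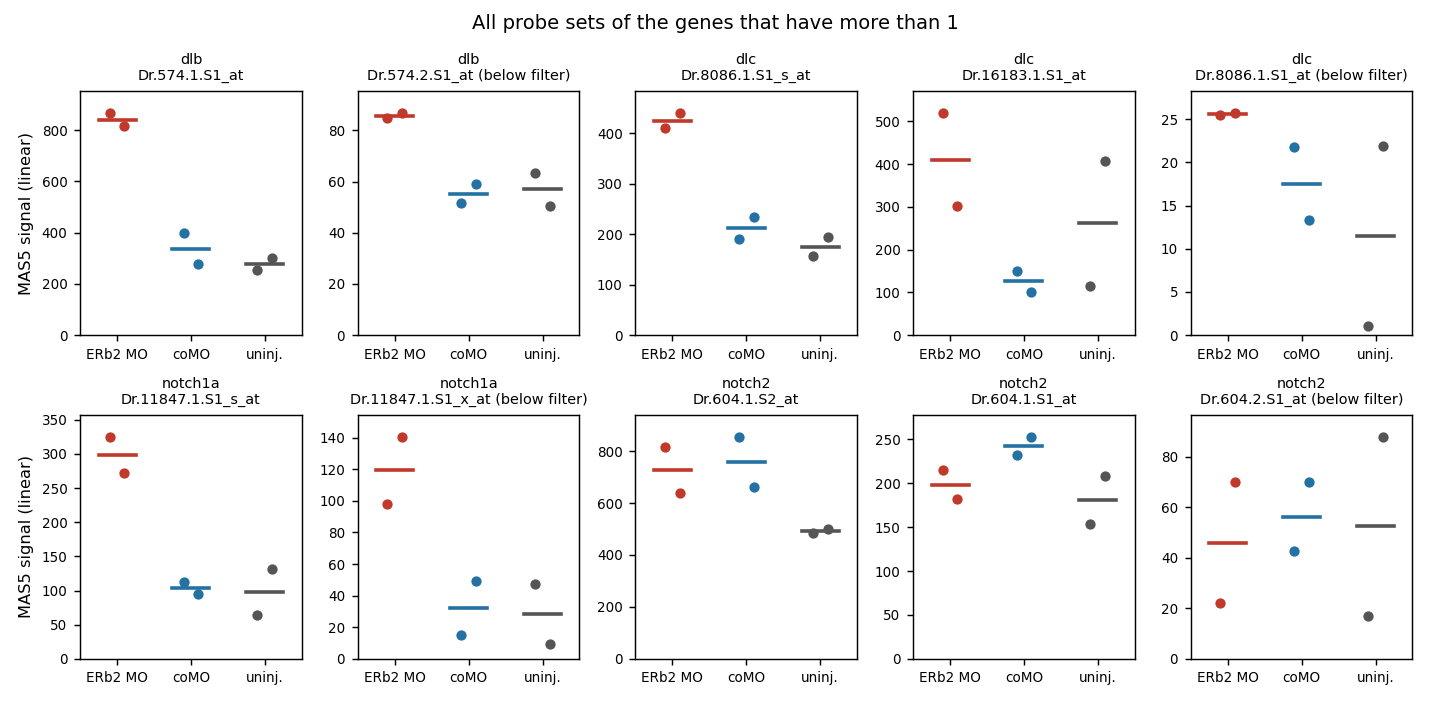
MAS5 signal (linear scale, from 0) of every probe set of the 4 genes with more than 1, with 1 point per array, a line at the mean of the 2 arrays, and ERbeta2 MO, coMO and uninjected embryos from left to right. Both dlb and both notch1a probe sets had the ERbeta2 MO arrays on top, while 1 uninjected array of the second dlc probe set reached 408 and the notch2 probe sets differed in order.

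The genes that process the ligands and receptors were described from a list of 35, of which 14 were tested. Against coMO 0 of 14 passed in limma, with a median change of 0.24. The smallest p belonged to aph1b, a subunit of the gamma-secretase that cleaves Notch (0.55, adjusted p = 0.176), to lfng, a fringe glycosyltransferase that modifies Notch (0.49, 0.207), and to psenen, another gamma-secretase subunit (0.53, 0.223). The psenen signal was 1053 and 892 on the ERbeta2 MO arrays and 563 and 776 on the coMO arrays. It was highest on the uninjected arrays (1080 and 1133), with a change of -0.18 for ERbeta2 MO against them (adjusted p = 0.578). Against uninjected embryos 3 of 14 rose and 0 fell, against 8.26% and 10.1% of all tested probe sets, with a median of 0.30. Changes were above 0 for 8 of the 14. The gene adam10b, for a protease that cleaves Notch at the cell surface, had 945 and 1043 on the ERbeta2 MO arrays, against 505 and 566 on the uninjected arrays (0.85, adjusted p = 0.02). The gene nrarpa, for an ankyrin-repeat inhibitor that Notch itself induces, had 1871 and 1885 on the ERbeta2 MO arrays, against 978 and 830 on the uninjected arrays (1.03, adjusted p = 0.0144). The gene aph1b had 1147 and 1016 on the ERbeta2 MO arrays, against 728 and 606 on the uninjected arrays (0.68, adjusted p = 0.0466). These groups did not overlap. Without uninjected replicate 1 or 2 the 3 calls did not hold. The related gene adam10a ran the other way, with 78.7 and 181 on the ERbeta2 MO arrays, against 326 and 261 on the uninjected arrays. Its change did not pass (-1.08, adjusted p = 0.0518).

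Of 24 genes of the her, hey and hes families, called the target list here, 11 were tested. Which of these genes answer to Notch in these embryos was not tested. Against coMO 0 of 11 passed in limma, with a median change of 0.086, and the smallest p were those of hes6 (0.47, adjusted p = 0.201), her4.5 (0.48, 0.283) and hey1 (-0.47, 0.36). Against uninjected embryos 2 of 11 rose and 0 fell, against 8.26% and 10.1% of all tested probe sets, with a median of 0.35, against 0.027 over all tested. The repressor gene her9 had 1302 and 957 on the ERbeta2 MO arrays, against 620 and 678 on the uninjected arrays (0.76, adjusted p = 0.0466). The gene hes6, whose product in mouse counteracts Hes1, had 1544 and 1554 on the ERbeta2 MO arrays, against 879 and 938 on the uninjected arrays (0.75, adjusted p = 0.0259). Neither was called without any 1 coMO or uninjected array. The gene her4.5, a target of Notch in neural progenitors, did not pass at a change of 0.62 (adjusted p = 0.0922), with 210 and 164 on the ERbeta2 MO arrays, against 102 and 117 on the uninjected arrays. By the array maker's naming, the probe sets of her4.5 and of her4.2, also in the list, hold probes that may match more than 1 transcript. The part of such matches was not tested.

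Proneural factors and early neuron markers were taken from a list of 17, with 12 tested. Against coMO 0 of 12 passed in limma, with a median of 0.42. The smallest p were those of neurog1, a proneural factor gene of sensory neurons (0.73, adjusted p = 0.122), neurod6a, a neuronal factor gene (-1.12, 0.147), and insm1b, a factor gene of dividing neural precursors (0.59, 0.151). Which genes of this list passed changed with the array left out. Against uninjected embryos 6 of 12 rose and 0 fell, against 8.26% and 10.1% of all tested probe sets, with a median of 0.80, against 0.027 over all tested. Changes were above 0 for 8 of the 12. In neurod6a both ERbeta2 MO arrays lay below both uninjected arrays, but the change did not pass (-0.97, adjusted p = 0.093). The gene elavl3, an early neuron marker, had 5153 and 8722 on the ERbeta2 MO arrays, against 1730 and 2424 on the uninjected arrays (1.70, adjusted p = 0.00972). The gene neurog1 had 368 and 286 on the ERbeta2 MO arrays, against 110 and 122 on the uninjected arrays (1.27, adjusted p = 0.0087). The other calls were insm1b (1.21), neurod4 (0.98), atoh7 (0.96), a factor gene of retinal ganglion cells, and ascl1a (0.82), and none of their groups overlapped. The count was 0 without uninjected replicate 1 and 1 without uninjected replicate 2.

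Between coMO and uninjected embryos no gene of the 3 lists passed in limma. The smallest adjusted p were those of psenen (-0.72, adjusted p = 0.327), adam10b (0.60, 0.33) and nrarpa (0.62, 0.337) in the processing list. In the target list they were those of hey1 (0.53, 0.451), her9 (0.37, 0.506) and her2 (0.37, 0.519). In the proneural list they were those of insm1b (0.62, 0.33), elavl3 (0.83, 0.351) and neurog1 (0.54, 0.379).

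**Figure D4:**
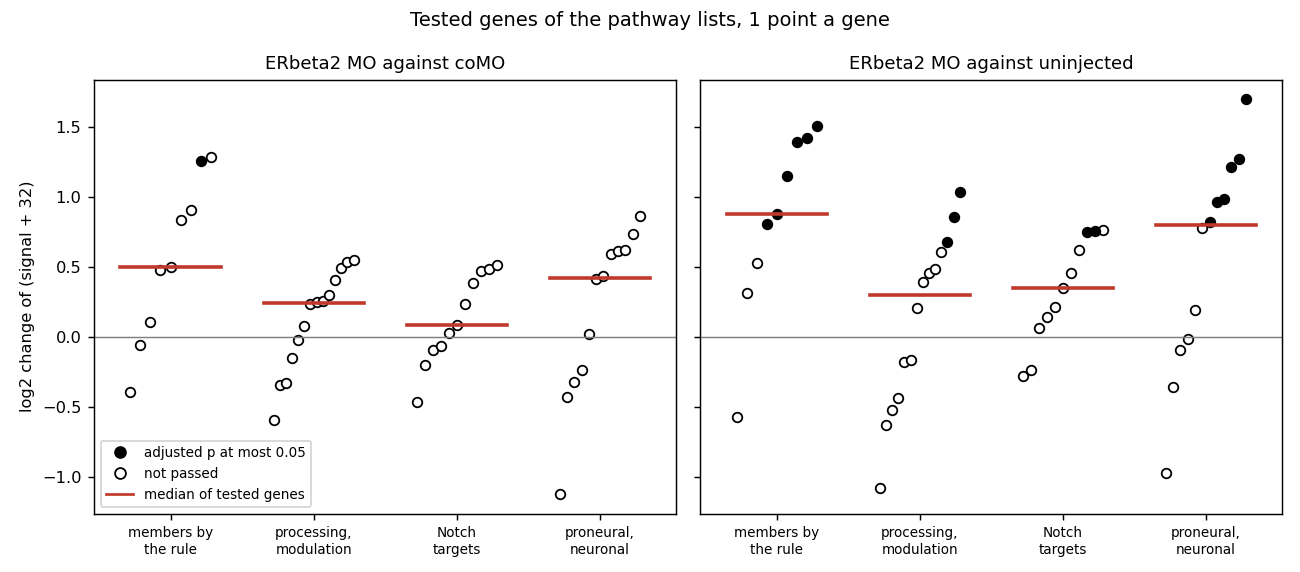
Log2 change of (signal + 32) of each tested gene of the 10 members and of the 3 pathway lists, for ERbeta2 MO against coMO and against uninjected embryos, with filled points where the adjusted p is at most 0.05 and a line at each list's median. The lowest point among the members in each panel is dld (-0.39 and -0.58).

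Markers of other cell types moved in different ways beside the members. The marker counts stand beside the shares of all tested probe sets. Against coMO 0.654% were called higher and 1.62% lower, and against uninjected embryos 8.26% and 10.1%. Of 11 neural progenitor markers 8 were tested, and 0 passed against coMO. Against uninjected embryos 1 rose and 0 fell, with a median of 0.24. The call was sox3, a factor gene of neural progenitors, with 2520 and 2120 on the ERbeta2 MO arrays, 1306 and 1769 on the coMO arrays, and 1145 and 1136 on the uninjected arrays (1.00 against uninjected embryos, adjusted p = 0.018). The related genes sox2 (0.63, adjusted p = 0.0796), sox19a (0.60, 0.0774) and sox1a (0.54, 0.133) did not pass. For these genes both ERbeta2 MO arrays lay above both uninjected arrays, as for 33.6% of tested probe sets. In sox19b the groups overlapped, with 69.9 and 80.6 on the ERbeta2 MO arrays, against 71.8 and 87.5 on the uninjected arrays (-0.057, adjusted p = 0.881). The glial and progenitor gene gfap (-0.56, adjusted p = 0.0971) and the proliferation gene pcna (-0.30, 0.263) did not pass, with both ERbeta2 MO arrays below. The summed signal of the 8 overlapped between groups, at 18028 to 18975 in ERbeta2 MO, 17815 to 21255 in coMO and 17692 to 19315 in uninjected embryos, but most of it came from fabp7a and pcna, so it does not show the sox genes.

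Of 8 neuron markers 0 passed against coMO and 1 rose against uninjected embryos, which was elavl3, a gene of the proneural list as well. Changes were above 0 for 2 of the 8 against coMO (median -0.091) and for 7 against uninjected embryos (median 0.32). In snap25b both ERbeta2 MO arrays lay below the other 4, and neither change passed (-1.05 against coMO, adjusted p = 0.162, and -0.89 against uninjected embryos, 0.113). The summed signal of the 8 overlapped, at 30653 to 53325 in ERbeta2 MO, 38748 to 43545 in coMO and 30414 to 32310 in uninjected embryos. Of 10 lateral line and hair cell markers 5 had a probe set and 3 were tested, with 0 called higher and 1 lower against coMO, and 1 higher and 1 lower against uninjected embryos. The gene eya1, a factor gene of sensory placodes, had 670 and 624 on the ERbeta2 MO arrays, 692 and 426 on the coMO arrays, and 303 and 348 on the uninjected arrays (0.93 against uninjected embryos, adjusted p = 0.0374). The gene pvalb8, a hair cell marker, fell, with 511 and 539 on the ERbeta2 MO arrays, 1357 and 1435 on the coMO arrays, and 2505 and 2051 on the uninjected arrays (-1.36 against coMO, adjusted p = 0.0214, and -2.05 against uninjected embryos, 0.00334). The gene cldnb, a marker of the lateral line, did not pass (0.18 against coMO, adjusted p = 0.811, and -0.71 against uninjected embryos, 0.191). The summed signal, 1612 to 2123 in ERbeta2 MO, 2521 to 2584 in coMO and 3474 to 3897 in uninjected embryos, thus mixed genes that went different ways. The hair cell factor gene atoh1a, singled out after its values were seen, was below the filter at 4.36 to 73.5.

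Several markers listed for mural cells, photoreceptors and liver, and 1 for endothelium, fell, opposite in direction to the called members. Of all tested probe sets 1.62% were called lower against coMO and 10.1% against uninjected embryos. Of 9 endothelial markers 3 were tested, all with changes below 0 in the 3 comparisons, and 0 passed against coMO. Against uninjected embryos tie1, a receptor gene of endothelium, fell (-1.21, adjusted p = 0.0135). The changes of kdrl (-0.12, adjusted p = 0.701) and efnb2a (-0.49, 0.117) against uninjected embryos did not pass. The summed signal of the 4 endothelial markers with a probe set was 702 to 727 in ERbeta2 MO, 785 to 909 in coMO and 941 to 946 in uninjected embryos. Of 4 mural cell markers listed only acta2 and tagln had a probe set, and both fell in both ERbeta2 MO comparisons. Their sum was 465 to 710 in ERbeta2 MO, 2004 to 3006 in coMO and 4167 to 4274 in uninjected embryos. Whether these signals come from the mural cells of vessels was not tested. Of 8 photoreceptor markers 7 fell in both ERbeta2 MO comparisons, and the sum was 3546 to 13249 in ERbeta2 MO, 53108 to 67229 in coMO and 68331 to 68819 in uninjected embryos. The remaining marker, crx, had changes above 0 that did not pass (0.43 against coMO, adjusted p = 0.368, and 0.74 against uninjected embryos, 0.0675). Of 3 liver markers 2 fell in both, among them fabp10a, a fatty acid binding protein gene of hepatocytes (-3.04 against coMO, adjusted p = 0.0176, and -3.83 against uninjected embryos, 0.00336). The remaining liver marker, fgb, did not pass (0.13 against coMO, adjusted p = 0.866, and -0.61 against uninjected embryos, 0.247). The sum of the 3 liver markers was 3702 to 4093 in ERbeta2 MO, 7752 to 12013 in coMO and 13824 to 14275 in uninjected embryos. Of 4 skeletal muscle markers tested 0 passed in any comparison by limma. No marker was at 0 on any array. The part of cell composition in the changes of the members was not tested.

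The patterns most like dlb over the 6 arrays, among 8674 other tested probe sets with 1 symbol, were those of rap2c (Pearson r = 0.998), homezb (0.997) and usp37 (0.997). For notch3 they were zgc:114130, rps15a and rpp14 (0.991 each). In homezb the signal was 748 and 717 on the ERbeta2 MO arrays, 513 and 463 on the coMO arrays, and 433 and 468 on the uninjected arrays. These correlations describe 6 points that share 3 groups, and no test was made of them.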

How the data were processed

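Per the labels' protocols, total RNA of whole embryos at 72 hpf was biotin-labelled with an Affymetrix kit. The authors deposited an intensity for each probe set on each array. The submitters' processing notes name MAS5 and no version of it. Among the files deposited are also 3 tables of the authors' fold ratios, whose directions were taken from their match with the signals. Genes were named from the platform annotation and updated by gene number through the RefSeq gene table of assembly GRCz12tu, which matched 10718 of 10802 probe sets. No coordinates are given, as no build of the array is stated in the sources used here.

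Signals were transformed as log2(signal + 32). Controls (115) and the lowest 25% of the other probe sets by mean log2 value were left out, and 11626 were tested. All 6 arrays entered 1 fit of 3 groups with limma 3.58.1 under R 4.3.3 (lmFit, and eBayes with an intensity trend, 3 residual and 5.31 prior degrees of freedom). P-values are two-sided and were adjusted by Benjamini-Hochberg over every probe set tested. The pipeline was run on data simulated under the same model, which checks the code and not the calls made here. For a gene with several probe sets, that of highest mean represents it and the others are given by themselves. Whether the replicates came from separate spawnings is not stated, so p-values cover only the spread between these samples. With 2 arrays a side, no exact permutation p can be under 0.333.

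The members, lists and named genes were chosen with earlier results of these data known. Named were all members, further family genes with a probe set, the called genes of each list and, where fewer than 3 were called, those with the smallest p up to 3, and the 3 most correlated genes for dlb and notch3. The genes dldh, adam10a and atoh1a lie outside this rule, as do several of the cell type markers named. Not every called marker is named. The alternatives changed the pseudocount (1 or 100), the filter (none or 50%), the normalization (median centring or quantile), the prior of eBayes, the arrays in the fit, the replicate number as a block and the GAPDH ratio as a covariate, or left out each array.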

Additional observations from a re-analysis of the deposited data

How the results depend on the processing

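Directions were reversed in few alternatives, none of them for a called change. Against coMO, notch2 was 0.012 with median centring and ranged from -0.24 to 0.12 with 1 array left out (0.11 without ERbeta2 MO replicate 2, 0.12 without coMO replicate 1). Likewise jag2b ranged from -0.021 (without ERbeta2 MO replicate 2) to 0.23. Another notch2 probe set changed by -0.049 against uninjected embryos. Between coMO and uninjected embryos notch1a ranged from -0.27 (without uninjected replicate 1) to 0.50, and other probe sets of dlb and dlc changed by -0.025 and -0.70. The call of dlb against coMO held in 9 of 17 alternatives (adjusted p from 0.0132 to 0.719).

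Against coMO 264 probe sets were called. The count was 170 with a pseudocount of 1, 129 with no filter, 141 with the replicate number as a block, 59 with only the 4 arrays compared and 0 under the GAPDH covariate. It ranged from 0 to 1606 when 1 array was left out. Of the members 1 was called, 2 with a pseudocount of 100 and 0 with no filter, the replicate block, the 4 arrays or the GAPDH covariate, and the counts were equal with dldh in place of dld. With 1 array left out the range was 0 to 3 (0 to 4 with dldh). Against uninjected embryos 2137 probe sets and 6 members (7 with dldh) were called, and 0 under the GAPDH covariate. With 1 array left out the ranges were 61 to 3148, 0 to 7 and 0 to 8. Between coMO and uninjected embryos 0 probe sets were called, 2 with only the 4 arrays compared, and 0 to 9 with 1 array left out. The cause of these differences was not tested.

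The groups share replicate numbers, and whether same-numbered samples belong together is not stated. The deviations of same-numbered arrays correlated by -0.085 between ERbeta2 MO and coMO, 0.11 between ERbeta2 MO and uninjected, and -0.096 between coMO and uninjected embryos. With so few arrays a group, these low values cannot decide whether same-numbered samples shared a spawning. With the replicate block the adjusted p of dlb against coMO was 0.0588, and against uninjected embryos that of jag1b was 0.0527 and that of notch3 0.0589. Under the 50% filter notch1a was not tested.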
